A study of Homo sapiens with 4 samples.

Results

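The enzymes that write, copy and remove DNA methylation, together with the catalytic and core subunits of Polycomb repressive complex 2, were followed in breast cancer cells exposed to a TEAD inhibitor. The genes were chosen by name: DNMT1, UHRF1, DNMT3A, DNMT3B, TET1, TET2, TET3, EZH1, EZH2 and SUZ12. All 10 were found among the 48162 genes of the deposited table. Of these, 9 passed a filter on low values, a mean of at least 1 FPKM (fragments scaled by gene length and by the fragments of the library) over the libraries, as did 12080 genes in all. TET1 fell below that filter and was not tested.

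The cells were MDA-MB-231, an established breast cancer line of mesenchymal character that lacks the oestrogen receptor. They were treated for 24 h with MGH-CP1 at 10 µM, as the sample labels give the dose, or with vehicle control. MGH-CP1 is a small molecule that blocks the autopalmitoylation of TEAD transcription factors, the DNA-binding partners of the co-activators YAP and TAZ. Polyadenylated RNA was sequenced in 2 libraries per group, 4 in all, from 1 cell line with no genetic change in either group. The study's methods print the same dose figure in mM. No label says whether the libraries of a group came from separate cultures, so a p-value measures only the spread between these libraries.

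DNA methylation is copied onto new strands after replication by DNMT1, which UHRF1 brings to hemimethylated sites. DNMT3A and DNMT3B place new marks, and the TET enzymes oxidise methylated cytosine as the first step of its removal. Polycomb repressive complex 2 methylates histone H3 through EZH2 or EZH1, which need SUZ12 and EED for activity, and EZH2 is known to be more abundant in dividing than in resting cells.

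DNMT1 and UHRF1, the maintenance pair, and EZH2 and SUZ12 of Polycomb repressive complex 2 were lower in both MGH-CP1 libraries, at 53.9% to 70.9% of the vehicle control mean. EZH1, the other catalytic subunit, was higher at 135% of it. No change was called for the de novo enzymes or for TET2 and TET3, although DNMT3B and TET3 were lower in both MGH-CP1 libraries. A gene was called when limma on log2(FPKM + 1), fitted to all genes tested, gave an adjusted p under 0.05. By this rule 4 of the 9 genes tested were called lower (44.4%), against 23.8% of all genes tested, and 1 was called higher (11.1%), against 27.1% of all genes tested. Under median-ratio scaling, quantile normalization, limma without a variance trend and limma voom on recovered fragments, 6 were called lower, DNMT3B and TET3 included. Of all 12080 genes tested, 3481, 3217, 2644 and 3097 were called lower under these settings, in that order. In either direction 5 of 9 were called (55.6%), close to the 50.8% of all genes tested, so the number of calls does not set these genes apart. The libraries of the groups did not overlap for 8 of 9 (88.9%), 6 lower and 2 higher after treatment, against 77.2% of all genes tested. The median log2 fold change was -0.25 over the 9 genes and 0.014 over all genes tested. In these bulk libraries fewer cells that express a gene and less RNA per cell cannot be told apart.

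**Figure D1:**
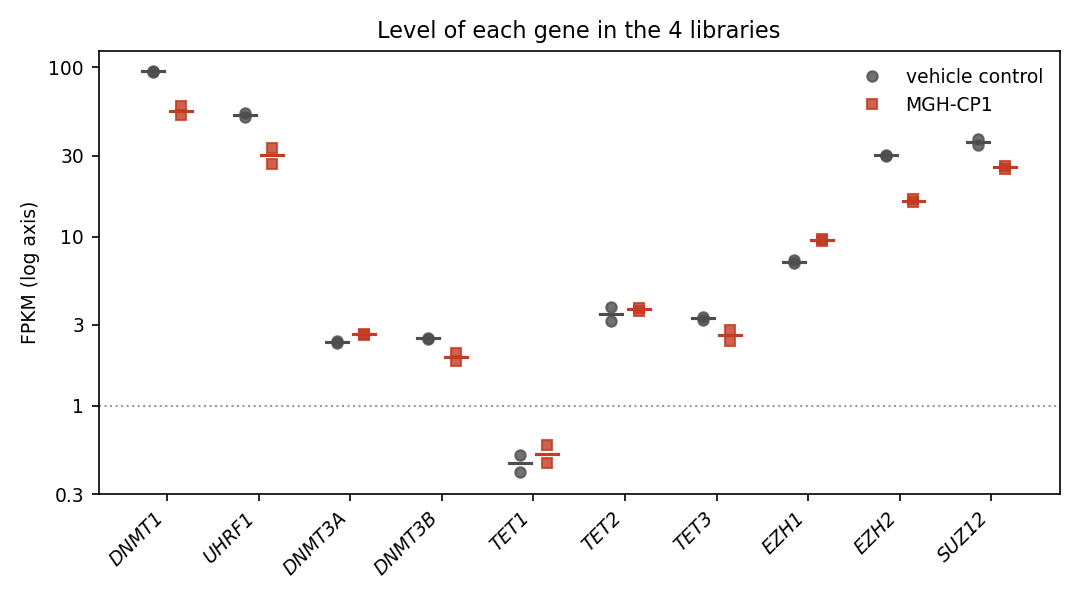
Level of each of the 10 genes in each library, in FPKM on a log axis, with vehicle control as grey circles, MGH-CP1 as red squares and a short line at each group mean of 2 libraries. The dotted line marks 1 FPKM, below which only TET1 lies, and DNMT1 stands highest in both groups, at means of 94.9 and 55.5 FPKM.

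The libraries held 17577930 to 25508824 fragments on genes, fewer in both MGH-CP1 libraries. CYR61 and CTGF, textbook targets of YAP and TEAD, were lower after MGH-CP1, with log2 fold changes of -0.75 and -0.66 (limma adjusted p = 3.29e-05 and 0.000102). Markers of MDA-MB-231 such as VIM and CD44 were abundant in every library, while ESR1 and PGR, the hormone receptors the line lacks, stood at or near 0. Of 6 markers of the line 4 were called lower (66.7%, against 23.8% of all genes tested), led by AXL and CAV1 with log2 fold changes of -0.76 and -0.49. The summed level of the 6 was 1240 FPKM in both vehicle control libraries and 971 to 1017 FPKM after MGH-CP1. Of 9 markers of other cells found in the table, 2 were tested and neither was called (1 was called lower with median-ratio scaling), with summed levels of 18.9 to 21.7 FPKM, nearly all from EPCAM and GATA3. CD3E was listed at 0 in every library. Genes of the cell cycle were lower throughout. Called lower were 25 of 25 S phase genes and 18 of 18 mitotic genes, against 23.8% of all genes tested.

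The promoters of the 5 called genes are shown because each held a word bound by E2F factors, which switch on genes at the entry to S phase. The windows, from RefSeq on GRCh38.p14, run from 250 bases before to 50 bases after an annotated transcript start. All 10 genes matched, with 22 windows. The words searched on both strands were TTTCCCGC, TTTGCCGC, TTTGGCGC and TTTCGCGC, and a word stands in capitals as it reads along the gene's strand, with up to 40 bases on each side and no more than 30 bases after the start. UHRF1 has 2 such windows.
DNMT1, chr19:10194924-10194995, minus strand: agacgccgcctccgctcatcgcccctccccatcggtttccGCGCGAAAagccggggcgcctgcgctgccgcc
UHRF1, first window, chr19:4909447-4909530, plus strand: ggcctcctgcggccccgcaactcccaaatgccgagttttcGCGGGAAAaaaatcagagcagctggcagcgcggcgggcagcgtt
UHRF1, second window, chr19:4909944-4910031, plus strand: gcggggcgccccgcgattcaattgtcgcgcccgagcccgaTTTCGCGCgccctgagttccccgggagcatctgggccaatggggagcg
EZH2, chr7:148884262-148884330, minus strand: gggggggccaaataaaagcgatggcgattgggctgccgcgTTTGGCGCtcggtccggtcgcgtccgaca
SUZ12, chr17:31936778-31936865, plus strand: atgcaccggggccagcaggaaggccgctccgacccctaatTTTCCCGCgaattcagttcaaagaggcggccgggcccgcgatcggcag
EZH1, chr17:42745108-42745195, minus strand: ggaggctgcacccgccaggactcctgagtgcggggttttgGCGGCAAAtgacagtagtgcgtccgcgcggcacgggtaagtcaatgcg

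In DNMT1 the word began 2 bases before the start, and in EZH2 it began at base 2 when the start is counted as base 1. In UHRF1 the words lay 14 and 160 bases before their starts, in EZH1 115 bases and in SUZ12 189 bases before. DNMT3A, DNMT3B, TET1, TET2 and TET3 held none of the words in their windows. Of all 35116 windows 3.31% held at least 1 of these words, as did 3.99% of 27305 genes in any window. The word was present in the gene called higher as well as in those called lower. GGAATG, the word bound by TEAD factors, was found in 14.0% of all windows and 16.7% of all genes, and among these 10 genes only in a TET1 window, 198 bases before the start. Of the 12080 genes tested 8490 matched a window by symbol, and 6.83% of these held an E2F word, with 10.1% of those called lower, 4.42% of those called higher and 6.42% of those not called. Since so many genes tested had no window, these shares are given as values only. A matching word is a description of the letters in the window and not a binding site.

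The windows also differed in CpG content, the substrate of the methylation enzymes themselves. The median over all windows was 14 CpG dinucleotides. The DNMT1, EZH1 and SUZ12 windows held 30, 30 and 40, and the EZH2 windows held 45 and 46. The UHRF1 windows held 36 to 46. The single DNMT3B window held 3, and 18.2% of windows held fewer. The TET1 windows held 6 to 11, also below the median, and the TET2 windows held 13 and 35. All DNMT3A windows, with 18 to 46, and the TET3 windows, with 33 and 45, were above the median, as was every window of the 5 called genes. The median for the windows of genes tested was not computed, so these values do not set the called genes apart.

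Transcripts of the maintenance pair fell together. DNMT1 (ENSG00000130816, hg19 chr19:10244021-10341962, minus strand) was measured at 94.3 and 95.5 FPKM in the vehicle control libraries and at 52.1 and 58.8 FPKM after MGH-CP1. Both treated libraries lay far below both controls, on 5075 to 13181 fragments per library. Its log2 fold change was -0.77 ± 0.062 (SE, n = 2 per group; limma adjusted p = 6.30e-05), and 1.58% of all genes tested fell more. The gene span overlaps S1PR2 and CTD-2369P2.2 on the same strand, which had only 39 to 85 fragments.

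UHRF1 (ENSG00000034063, hg19 chr19:4903092-4962165, plus strand) recognises hemimethylated DNA and ubiquitinates histone H3 to recruit DNMT1. It stood at 50.7 and 54.1 FPKM in vehicle control and 26.96 and 33.5 FPKM after MGH-CP1. The groups were again separate, although the treated libraries differed from each other more than the controls did, and the second was the higher of the treated pair for DNMT1 and for UHRF1. On the log2 scale the fold change was -0.78 ± 0.093 (SE, n = 2 per group; limma adjusted p = 0.000328). The file lists the gene as a processed transcript, although UHRF1 is known to encode a protein.

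The ratio of DNMT1 to UHRF1 was 1.86 and 1.77 in vehicle control and 1.93 and 1.75 after MGH-CP1. These values overlapped, with a change in log2 ratio of 0.023 (exact permutation test, two-sided, p = 1). With 2 libraries per group this exact permutation test cannot go below p = 0.333, so here and for every ratio and share the position of the libraries is given rather than a call. UHRF2, a paralogue of UHRF1 that does not replace it in maintenance methylation, was at 7.67 and 7.41 FPKM in vehicle control and 8.52 and 9.75 FPKM after MGH-CP1. It was called higher (log2 fold change 0.24, limma adjusted p = 0.0340). Its share of the UHRF1 plus UHRF2 level went from 12.6% ± 0.769 to 23.3% ± 1.05 (SD, n = 2), with no overlap.

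The de novo enzymes were expressed at a small fraction of DNMT1. DNMT3A (ENSG00000119772, hg19 chr2:25455845-25565459, minus strand) was at 2.36 and 2.41 FPKM in vehicle control and 2.67 and 2.63 FPKM after MGH-CP1. Both treated libraries were above both controls, but the difference was small. The log2 fold change of 0.11 had a 95% interval of -0.11 to 0.33 (limma adjusted p = 0.372), on 207 to 275 fragments, and was not called.

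DNMT3B (ENSG00000088305, hg19 chr20:31350191-31397162, plus strand) went the other way, at 2.47 and 2.52 FPKM in vehicle control and 1.85 and 2.06 FPKM after MGH-CP1. The groups did not overlap. Its log2 fold change of -0.25 missed the threshold (95% interval -0.48 to -0.0081, limma adjusted p = 0.0789), on 144 to 279 fragments. Under median-ratio scaling, quantile normalization, limma without a variance trend and limma voom on the recovered fragments it was called lower, with adjusted p of 0.0196 to 0.0492.

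In vehicle control the pair stood nearly level, on 269 and 275 fragments for DNMT3A and 273 and 279 for DNMT3B, so no order is read there. The ratio of DNMT3A to DNMT3B was 0.954 and 0.955 in vehicle control and 1.45 and 1.28 after MGH-CP1, with no overlap. The change in log2 ratio was 0.51, or 0.35 with a pseudocount of 1. The ratio of DNMT1 to DNMT3A fell from a mean of 39.8 to 20.9. DNMT1 still made up 95.1% ± 0.0210 of the summed DNMT1, DNMT3A and DNMT3B level in vehicle control and 92.3% ± 0.408 after MGH-CP1 (SD, n = 2). DNMT3L, the inactive cofactor of the de novo enzymes in germ cells, was listed at 0.0691 FPKM or less in every library.

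Among the oxidising enzymes TET2 and TET3 were the main transcripts. TET1 (ENSG00000138336, hg19 chr10:70320413-70454239, plus strand) was at 0.512 and 0.405 FPKM in vehicle control and 0.461 and 0.582 FPKM after MGH-CP1, on 77 to 121 fragments. The groups overlapped and no direction could be read at this depth. TET2 (ENSG00000168769, hg19 chr4:106067032-106200973, plus strand) was at 3.84 and 3.17 FPKM in vehicle control and 3.62 and 3.79 FPKM after MGH-CP1. Both treated libraries lay between the controls. Its log2 fold change was 0.066 with a 95% interval of -0.17 to 0.30 (limma adjusted p = 0.612), and the sign turned to -0.026 under quantile normalization and to -0.041 without the second vehicle control library.

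TET3 (ENSG00000187605, hg19 chr2:74229840-74335303, plus strand) was at 3.35 and 3.22 FPKM in vehicle control and 2.42 and 2.80 FPKM after MGH-CP1. It was the single TET gene whose groups did not overlap, with both treated libraries lower. The log2 fold change was -0.25 (95% interval -0.48 to -0.020, limma adjusted p = 0.0668), not called, though the same 4 alternatives that called DNMT3B called TET3 lower, with adjusted p of 0.00194 to 0.0401.

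The TET2 to TET3 ratio was 1.15 and 0.985 in vehicle control and 1.496 and 1.35 after MGH-CP1. The share of TET3 in the summed TET level was 45.4% ± 2.75 in vehicle control and 38.1% ± 1.29 after MGH-CP1 (SD, n = 2), without overlap. The summed TET level itself, 7.25 ± 0.638 FPKM and 6.84 ± 0.482 FPKM (SD, n = 2), overlapped between the groups (exact permutation test, two-sided, p = 0.667). The summed DNMT level was a mean of 13.8 times the summed TET level in vehicle control and 8.78 times after MGH-CP1, with no overlap.

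**Figure D2:**
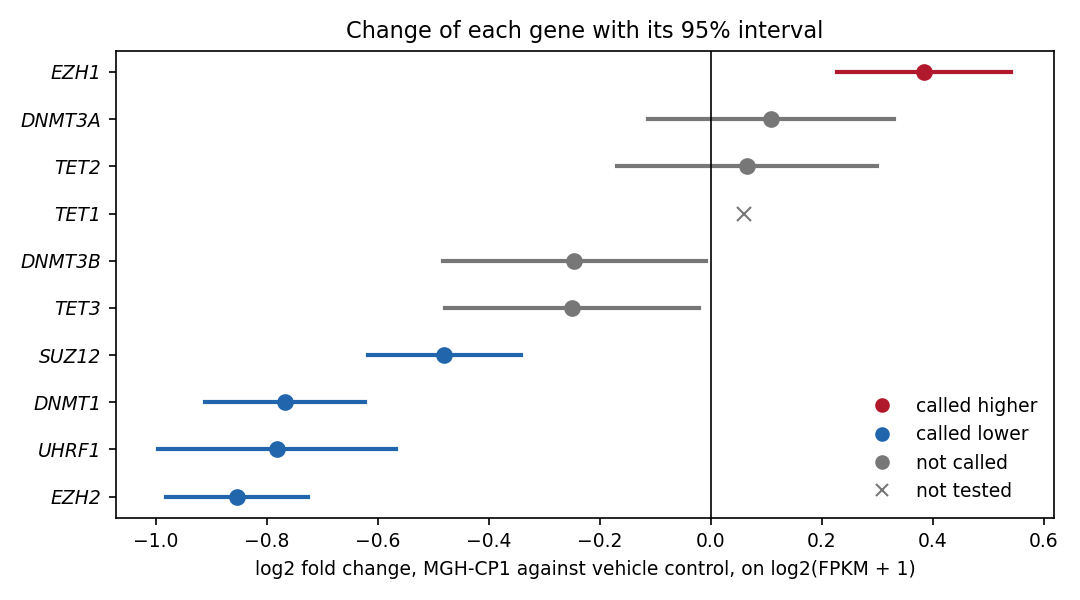
Log2 fold change of each gene, MGH-CP1 against vehicle control on log2(FPKM + 1), as a point with its 95% interval from limma, coloured by call, with the untested TET1 as a cross. EZH2 at -0.85 and EZH1 at 0.38 are the outermost, and the intervals of DNMT3A and TET2 cover 0.

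The catalytic subunits of Polycomb repressive complex 2 moved in opposite directions. EZH2 (ENSG00000106462, hg19 chr7:148504475-148581413, minus strand) was at 30.5 and 30.01 FPKM in vehicle control and 15.9 and 16.7 FPKM after MGH-CP1. Replicates lay close together and the groups far apart. Its log2 fold change of -0.85 ± 0.055 (SE, n = 2 per group; limma adjusted p = 2.79e-05) was the largest fall among the 10 genes, and 0.919% of all genes tested fell more.

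EZH1 (ENSG00000108799, hg19 chr17:40852293-40897071, minus strand) has weaker methyltransferase activity and is the form typical of non-dividing cells. It was at 6.93 and 7.27 FPKM in vehicle control and 9.47 and 9.67 FPKM after MGH-CP1. Both treated libraries were higher than both controls. EZH1 had a log2 fold change of 0.38 ± 0.068 (SE, n = 2 per group; limma adjusted p = 0.00226), and 16.2% of all genes tested rose more, on 786 to 857 fragments per library.

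The ratio of EZH2 to EZH1 was 4.40 and 4.13 in vehicle control and 1.68 and 1.73 after MGH-CP1. The change in log2 ratio was -1.32, or -1.24 with a pseudocount of 1, with no overlap. EZH1 made up 19.0% ± 0.700 of the EZH1 plus EZH2 level in vehicle control and 37.0% ± 0.416 after MGH-CP1 (SD, n = 2). The sum of both fell from 37.4 ± 0.137 to 25.9 ± 0.676 FPKM (SD, n = 2), so EZH2 remained the more abundant transcript and the rise of EZH1 did not make up the fall of EZH2 in transcript level.

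**Figure D3:**
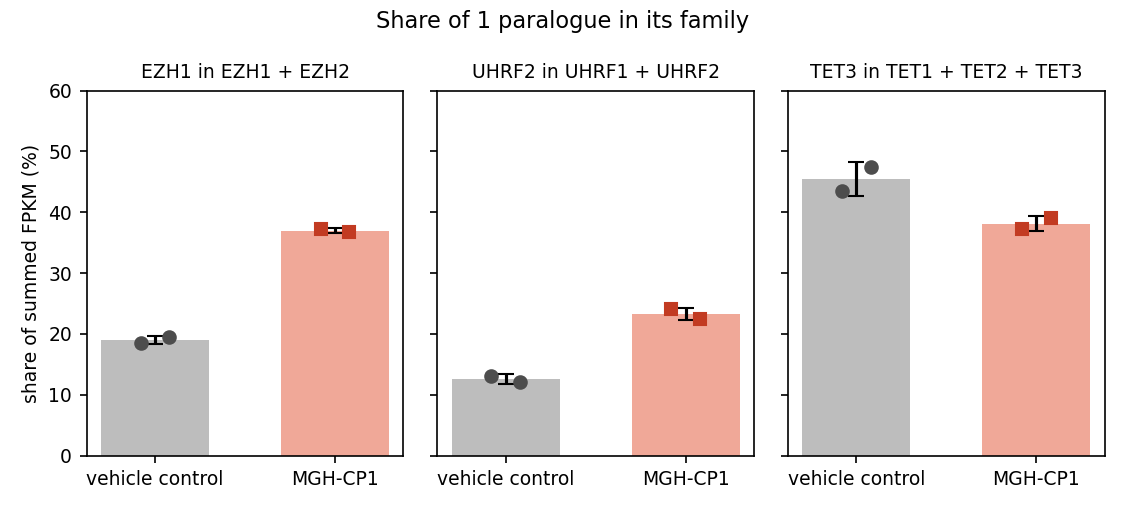
Share of a paralogue in the summed FPKM of its family, in percent, with bars at group means, error bars of 1 SD (n = 2) and a point for each library. EZH1 went from 19.0% to 37.0%, UHRF2 from 12.6% to 23.3% and TET3 from 45.4% to 38.1%, without overlap between the groups.

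SUZ12 (ENSG00000178691, hg19 chr17:30264037-30328064, plus strand), the scaffold subunit, was at 37.7 and 34.7 FPKM in vehicle control and 26.2 and 25.1 FPKM after MGH-CP1. Both treated libraries were lower. The log2 fold change was -0.48 ± 0.060 (SE, n = 2 per group; limma adjusted p = 0.000402), and 6.80% of all genes tested fell more. The ratio of EZH2 to SUZ12 went from 0.810 and 0.866 to 0.609 and 0.664 without overlap, a change in log2 ratio of -0.40. The pseudogene SUZ12P, which resembles part of SUZ12 and could share reads with it, moved the opposite way, from 3.93 and 4.22 to 5.41 and 4.92 FPKM (log2 fold change 0.28, limma adjusted p = 0.0267). EZH2P1, a pseudogene of EZH2, was listed at 0.

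In order of level, the vehicle control libraries ran DNMT1, UHRF1, SUZ12, EZH2, EZH1, TET2, TET3, DNMT3B, DNMT3A and TET1, with neighbours separate in both libraries except TET2 and TET3, whose values overlapped. DNMT3B and DNMT3A stood close there, at means of 2.50 and 2.38 FPKM. After MGH-CP1 the first 6 places were unchanged. DNMT3A then stood level with TET3, their values overlapping, and DNMT3B came below both.

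By likeness of profile, the Euclidean distance between centred log2(FPKM + 1) values over the 4 libraries, the genes nearest to EZH2 were FOXM1 at 0.0184, KIF2C at 0.0312 and KPNA2 at 0.0320. FOXM1, a transcription factor of the G2 and M phases, was at 57.3 and 55.3 FPKM in vehicle control and 30.1 and 31.4 FPKM after MGH-CP1. Those nearest to EZH1 were RRAGB at 0.00657, SIRT6 at 0.00860 and POLI at 0.0165. With 4 libraries in separate groups, such distances mostly reflect a like difference between the groups.

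Most partners of DNA methylation, a list that runs from factors of the replication fork to silencers of repeats, were lower. Of 12 tested 8 were called lower (66.7%) and 2 higher (16.7%), with a median log2 fold change of -0.44. Of all genes tested 23.8% were called lower and 27.1% higher. PCNA is counted in this list and again among the S phase genes. HELLS, the remodeller needed for methylation of repeats, and KIAA0101, a PCNA-binding protein, fell most, with log2 fold changes of -0.81 and -0.80 (limma adjusted p = 0.000109 and 6.32e-05). SETDB1, a histone H3 lysine methyltransferase that silences repeats, rose with UHRF2 (log2 fold change 0.33, limma adjusted p = 0.00777). With median-ratio scaling only 1 of the partners was called higher.

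Among 8 readers of methylated DNA 1 was called higher (12.5%, against 27.1% of all genes tested) and 2 lower (25%, against 23.8%). Their median was -0.11. ZBTB4 rose by 0.44, and MBD2 and ZBTB38 had log2 fold changes of -0.48 and -0.16 (limma adjusted p = 0.000582, 0.000578 and 0.0469). With median-ratio scaling 4 readers were called lower.

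Partners of demethylation tended the other way, with 5 of 11 called higher (45.5%, against 27.1% of all genes tested) and 1 lower. Lower calls made up 9.09%, against 23.8% of all genes tested, and the median was 0.23. The largest rise was that of NEIL1, a glycosylase of base excision repair, at 0.997 and 1.14 FPKM in vehicle control and 4.01 and 3.57 FPKM after MGH-CP1 (log2 fold change 1.21, limma adjusted p = 9.43e-05). IDH1, which makes the 2-oxoglutarate that TET enzymes consume, rose by 0.67, from 29.9 and 30.4 to 50.3 and 46.6 FPKM (limma adjusted p = 7.04e-05). NEIL3, a glycosylase active in S phase, had a log2 fold change of -0.91 (limma adjusted p = 0.000115). With median-ratio scaling 2 of these genes were called lower.

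In the cycle that makes and recycles the methyl donor S-adenosylmethionine, 2 of 8 genes were called higher (25%) and 3 lower (37.5%). Of all genes tested 27.1% were called higher and 23.8% lower. The median of the cycle was 0.10. AHCY, which clears the product inhibitor S-adenosylhomocysteine, was at 90.0 and 90.7 FPKM in vehicle control and 62.4 and 65.8 FPKM after MGH-CP1 (log2 fold change -0.49, limma adjusted p = 0.000145). MTRR, which reactivates methionine synthase, also fell, with -0.41. MAT2A, the synthetase of the donor, rose by 0.22 (limma adjusted p = 0.00159 for MTRR and 0.00591 for MAT2A).

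The remaining subunits of Polycomb repressive complex 2 changed less than EZH2. Of 10 tested, 4 were called lower (40%, against 23.8% of all genes tested) and 1 higher (10%, against 27.1%), with a median of -0.16. EED, the core subunit that reads the mark, was at 11.9 and 12.6 FPKM in vehicle control and 11.3 and 10.2 FPKM after MGH-CP1. Both treated libraries were below both controls, but its difference of -0.17 on the log2 scale was not called (limma adjusted p = 0.0768). With median-ratio scaling 6 of the 10 subunits were called lower, as were 3481 of the 12080 genes tested. The histone chaperones RBBP4 and RBBP7 were called lower, with -0.16 and -0.18 (limma adjusted p = 0.0319 and 0.0153).

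The accessory Polycomb-like proteins, which bring the complex to CpG islands, diverged. MTF2 was lower in both treated libraries but not called (log2 fold change -0.17, limma adjusted p = 0.0661). PHF19 went from 50.8 and 52.0 to 29.0 and 33.0 FPKM (log2 fold change -0.71, limma adjusted p = 0.000110). PHF1 went from 38.3 and 41.6 to 57.4 and 56.3 FPKM (log2 fold change 0.50, limma adjusted p = 0.000235). C10orf12, another accessory subunit, had a log2 fold change of -0.42 (limma adjusted p = 0.00737). SETDB1, PHF1, MTRR, RBBP4 and RBBP7 each overlap a gene on the opposite strand with 186 or more fragments in every library, and no strand-specific library step is named, so reads in the overlaps cannot be told apart.

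In Polycomb repressive complex 1, which ubiquitinates histone H2A, 6 of 23 genes were called higher (26.1%) and 2 lower (8.70%), with a median of -0.081. The share called higher was close to the 27.1% of all genes tested, of which 23.8% were called lower. CBX7, a reader of the mark set by EZH2, and RING1, a catalytic subunit, rose by 0.46 and 0.40 (limma adjusted p = 0.0148 and 0.000472). PCGF6 and SCMH1 had log2 fold changes of -0.41 and -0.27 (limma adjusted p = 0.000978 and 0.00632). With median-ratio scaling 5 genes of this complex were called lower.

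Enzymes and remodellers that oppose Polycomb were mostly lower, 12 of 17 called lower (70.6%) against 1 higher (5.88%), with a median of -0.24. Of all genes tested 23.8% were called lower and 27.1% higher. KDM6B, a demethylase of the Polycomb mark, was the one that rose, from 2.79 and 2.96 to 5.46 and 4.71 FPKM (log2 fold change 0.65, limma adjusted p = 0.000916). WHSC1 and MLL, histone methyltransferases of active chromatin, had log2 fold changes of -0.60 and -0.46 (limma adjusted p = 0.000154 and 0.000612).

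**Figure D4:**
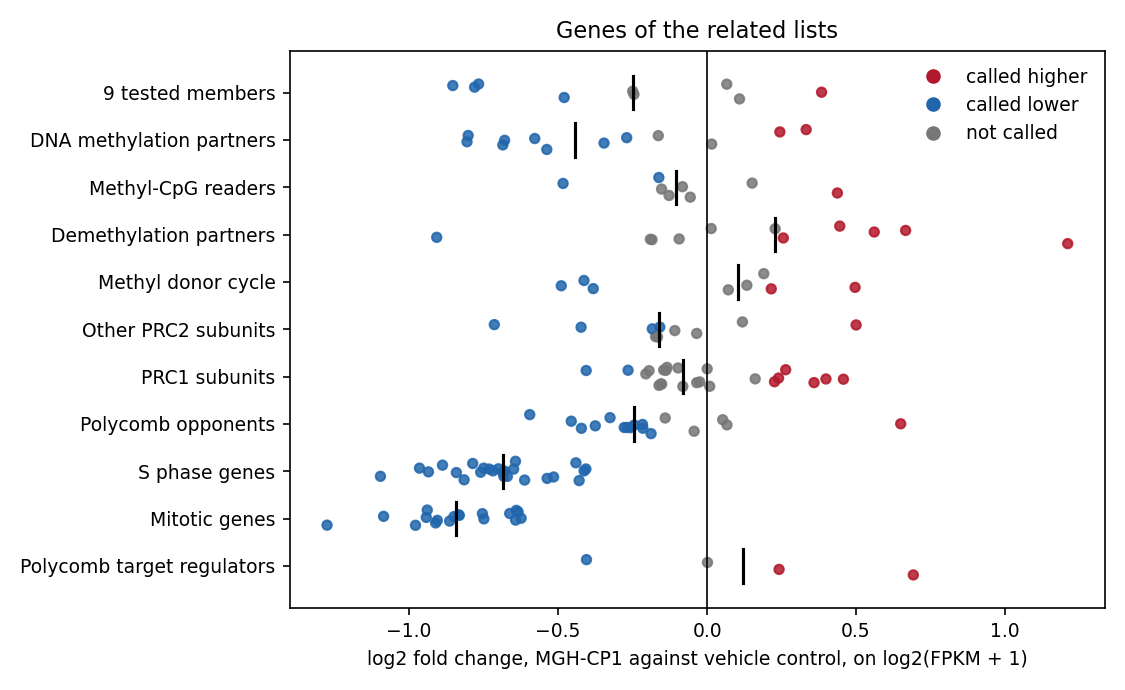
Log2 fold change of each tested gene by list, MGH-CP1 against vehicle control on log2(FPKM + 1), coloured by call, with a black bar at each list's median. S phase and mitotic genes lie wholly below 0, with medians of -0.69 and -0.84, while demethylation partners have a median of 0.23.

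DNMT1, UHRF1 and EZH2 lay within the range of the genes of DNA replication and of division. The S phase genes had log2 fold changes of -1.10 to -0.41 and a median of -0.69, led by RRM2 and POLA1 at -1.10 and -0.97 (limma adjusted p = 1.50e-05 and 3.67e-05). The mitotic genes ran from -1.28 to -0.62 with a median of -0.84, led by MKI67 and CENPF at -1.28 and -1.09 (limma adjusted p = 1.96e-05 and 2.41e-05). SUZ12 at -0.48 lay within the S phase range and above the mitotic one. The summed S phase level was 1480 FPKM in both vehicle control libraries and 856 and 949 FPKM after MGH-CP1, and the second treated library was also the higher for DNMT1, UHRF1 and EZH2, but the lower for SUZ12. The part of the cell cycle in the fall of these genes was not tested.

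Most genes chosen as known targets of silencing by DNA methylation or Polycomb were too low to test. Of 16 germline genes chosen as known targets of DNA methylation none reached the filter and 11 were listed at 0 in every library. The summed level of the 16 was 0.949 to 1.31 FPKM. STAG3, a cohesin subunit of meiosis chosen here after its values were seen, was at 0.194 FPKM in both vehicle control libraries and 0.462 and 0.396 FPKM after MGH-CP1, on 22 to 37 fragments. Of 20 developmental regulators that are Polycomb targets in many cells 13 were listed at 0 throughout and 4 could be tested. Of the 4 tested, 2 were called higher (50%) and 1 lower (25%), against 27.1% and 23.8% of all genes tested. CDKN1C, an inhibitor of cyclin-dependent kinases, was at 3.85 and 4.95 FPKM in vehicle control and 9.02 and 6.52 FPKM after MGH-CP1 (log2 fold change 0.69, limma adjusted p = 0.00531). GATA6 rose by 0.24 and FOXC1 had a log2 fold change of -0.40 (limma adjusted p = 0.0105 and 0.00236), while WT1, the remaining one, was not called. HOXA13 and BMP2, untested and chosen after their values were seen, were also higher in both treated libraries. HOXA13 was at 0.548 and 0.753 FPKM in vehicle control and 1.18 and 1.13 FPKM after MGH-CP1. BMP2 was at 0.545 and 0.479 FPKM in vehicle control and 0.710 and 0.790 FPKM after MGH-CP1. The remaining untested genes of both lists overlapped between the groups or were listed at 0. Among them, MAEL was at 0.734 and 0.799 FPKM in vehicle control and 0.613 and 0.870 FPKM after MGH-CP1. PAX6 was at 0.352 and 0.351 FPKM in vehicle control and 0.466 and 0.304 FPKM after MGH-CP1. DNA methylation and histone marks themselves were not measured in these libraries.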

How the data were processed

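RNA from MDA-MB-231 cells was sequenced in 2 vehicle control and 2 MGH-CP1 libraries. Per-gene FPKM deposited by the authors covered 48162 genes, listed with coordinates and lengths, and the submitters' processing notes name CASAVA 1.8, STAR and hg19; the counting tool was not given in the sources used here. FPKM times length gave whole fragment numbers (tolerance 0.01) for 100% of values. These were used for depth and limma voom. Genes whose mean FPKM reached 1 were tested on log2(FPKM + 1) with limma 3.58.1 in R 4.3.3. The fit used eBayes with trend and 5.97 prior degrees of freedom. Tests were two-sided, with Benjamini-Hochberg over 12080 genes and a threshold of 0.05. This step was also run on simulated data with the same spread set for every gene, which does not gauge the calls made here. A fold change on this scale understates that of low genes. Fragment numbers limit the precision of low genes such as TET1, and cover counting error only. From each list the text names up to 2 genes called with the largest rise and 2 with the largest fall, the core subunits EED, RBBP4 and RBBP7, and the 3 nearest profiles. MTF2 and PCNA are named outside this rule. The members and lists were chosen with earlier results of these data known. Promoter windows came from RefSeq. Protein sequences were not analysed here. A gene that the naming rule selects is not reported here.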

Additional observations from a re-analysis of the deposited data

How the results depend on the processing

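The calls rest on sharing the variance between genes. Without shared variance, the per-gene test, 0 of the 9 genes were called higher and 0 lower (lowest limma adjusted p = 0.0585), although 7 had an unadjusted p under 0.05, and 9 and 4 of all genes tested were called higher and lower. With no filter on low values, where many genes listed at 0 enter the fit, 0 of the 10 were called higher and 1 lower, EZH2 (limma adjusted p = 0.0262), 7 had an unadjusted p under 0.05, and 605 and 490 of all genes were called higher and lower. Under median-ratio scaling, quantile normalization, limma without the trend and limma voom on fragments 6 were called lower and 1 higher. Of all 12080 genes tested, 3481, 3217, 2644 and 3097 were then called lower and 2815, 2922, 3120 and 3493 higher, in that order. Median-ratio scaling also turned the balance of all genes tested, to 2815 higher and 3481 lower from 3273 and 2869. TET2 turned sign, to -0.026 under quantile normalization and -0.041 without the second vehicle control library, with leave-one-out values of -0.041 to 0.17. Leaving out any 1 library kept the calls of DNMT1, UHRF1, EZH2, SUZ12 and EZH1, with the highest adjusted p of 0.0160 for EZH1. The log2 fold change then ran from -0.85 to -0.68 for DNMT1, -0.93 to -0.63 for UHRF1, -0.88 to -0.82 for EZH2, -0.54 to -0.42 for SUZ12 and 0.35 to 0.41 for EZH1. Deviations of same-numbered libraries from their group means had a correlation of 0.0777. With 2 libraries per group this value is the same for both pairs by construction. It cannot show whether same-numbered libraries were handled together. With the replicate block 4 of the 9 genes were still called lower and 1 higher. Of all genes tested, 3466 were then called higher and 3052 lower. With a pseudocount of 1 the change in log2 ratio was 0.35 for DNMT3A to DNMT3B and 0.31 for TET1 to TET3. Median-ratio scaling moved the median log2 fold change of all genes from 0.014 to -0.034.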
